A study of Mus musculus with 18 samples.

Results

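Adgre1, Adgre4, Adgre5, Aif1 and Coro1a are 5 genes used as markers of macrophages and other leukocytes, read here in cultured mouse macrophages given plasma from 4 kinds of mice. They were chosen by gene symbol, 1 row of the deposited value table for each, and with their log2 values across the 4 plasma groups known. They are 5 of the 24705 rows that carry 1 gene symbol in the platform annotation, among 25428 rows in all. Because these values selected the genes, their levels and differences are given as a description, with no test.

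The cells were bone marrow-derived macrophages, a primary cell made by growing mouse femoral marrow with the macrophage growth factor M-CSF, here at 30 ng/mL. From day 4 the serum in the medium was replaced by 10% plasma, and RNA was taken after 48 h, on day 6. Plasma donors were C57BL/6J mice, all fed a Western diet for 8 weeks. The 4 arrays called WT had plasma of wild-type mice. The 5 arrays called ApoE had plasma of ApoE-KO mice, which lack apolipoprotein E, a carrier protein that clears lipoproteins from blood. The 3 arrays called AS1 had plasma of ApoE-Stab1-KO mice and the 6 arrays called AS2 plasma of ApoE-Stab2-KO mice, which also lack stabilin-1 or stabilin-2, scavenger receptors of sinusoidal endothelium. AS1 and AS2 donors thus shared the loss of apolipoprotein E with the ApoE donors. The knockouts name the plasma donors, the macrophages carry no genotype label of their own, and donor age, donor number and any pooling of plasma are not stated in the labels. The labels do not say that replicates were separate cultures or donors, so every error and p-value here covers array-to-array variation alone, and that may be technical.

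The ADGRE proteins are adhesion G protein-coupled receptors of leukocytes, with a long extracellular part of EGF-like domains that binds ligands on other cells or in the matrix. Adgre1 encodes EMR1, the classic surface antigen by which mouse tissue macrophages are recognised, and Adgre4 encodes a related receptor of myeloid cells, also called FIRE or EMR4. Adgre5 encodes CD97, which is found on most leukocytes and binds CD55, Thy1 and integrins. Aif1 encodes IBA1, a calcium- and actin-binding protein of macrophages and microglia that takes part in membrane ruffling and phagocytosis and works with the small GTPase Rac. Coro1a encodes coronin 1A, a leukocyte protein that binds actin and restrains the Arp2/3 complex, which nucleates branched actin filaments.

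Sequence upstream of the transcription start was looked up for all 5 genes. RefSeq promoter windows (build GRCm38.p6) matched 3 of the 5 genes by symbol, with 2 start sites for Coro1a. The 250 bases before each start are given 5′ to 3′ on the gene's strand, at chr17:55749734-55749983 on the plus strand for Adgre4, chr17:35176053-35176302 on the minus strand for Aif1, and chr7:126704221-126704470 and chr7:126704817-126705066 on the minus strand for Coro1a. Capitals mark matches, on either strand, to the motifs searched.
Adgre4: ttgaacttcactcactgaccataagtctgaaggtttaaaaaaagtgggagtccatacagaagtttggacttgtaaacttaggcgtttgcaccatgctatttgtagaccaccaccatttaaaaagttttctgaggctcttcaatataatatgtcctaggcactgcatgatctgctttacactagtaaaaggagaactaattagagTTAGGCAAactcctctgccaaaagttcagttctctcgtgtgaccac
Aif1: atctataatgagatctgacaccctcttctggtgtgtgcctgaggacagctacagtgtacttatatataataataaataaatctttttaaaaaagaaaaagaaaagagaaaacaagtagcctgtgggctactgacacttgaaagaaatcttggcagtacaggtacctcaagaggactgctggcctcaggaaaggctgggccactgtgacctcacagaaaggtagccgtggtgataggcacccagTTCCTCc
Coro1a, first window: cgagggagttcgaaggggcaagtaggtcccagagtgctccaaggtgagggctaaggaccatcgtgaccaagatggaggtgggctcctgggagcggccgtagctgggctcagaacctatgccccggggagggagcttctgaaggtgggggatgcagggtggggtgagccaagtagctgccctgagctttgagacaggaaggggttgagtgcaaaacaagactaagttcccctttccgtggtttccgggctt
Coro1a, second window: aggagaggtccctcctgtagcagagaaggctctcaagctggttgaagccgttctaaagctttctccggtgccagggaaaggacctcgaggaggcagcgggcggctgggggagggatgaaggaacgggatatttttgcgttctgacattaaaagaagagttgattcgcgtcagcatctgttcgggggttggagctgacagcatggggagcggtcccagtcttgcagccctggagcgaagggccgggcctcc
The motifs were the core of PU.1, the myeloid master regulator (GAGGAA), its extended form (GAGGAAGT, which contains the core), the AP-1 element (TGANTCA), a C/EBP element (TTNNGNAA) and a TATA box (TATAAA). Adgre4 held 1 C/EBP match, starting 46 bases before the start site, a motif found in 36.8% of all 32851 windows of the same length. Aif1 held 1 PU.1 core, read on the opposite strand and starting 7 bases before the start site, a motif found in 23.3% of windows. The extended PU.1 form, AP-1 and TATA letters, present in 2.44%, 6.75% and 12.4% of windows, were in none of the 4 windows, and neither Coro1a window held any of the 5 motifs. The windows differed in base composition, with GC contents of 39.6% for Adgre4, 43.6% for Aif1 and 60.0% and 58.8% for Coro1a, against a median of 52.4% over all windows. A match is a run of letters and not a measured binding site.

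The deposited values are log2 expression after RMA, which corrects background, gives arrays the same distribution and summarises probes, so a change in the total RNA of a cell cannot be seen. Macrophage identity was read from Csf1r, the M-CSF receptor, which had group means of 12.22 to 12.61, and Cd68, a lysosomal macrophage protein, which had 12.57 to 12.81, where the median of all values was 4.37. Cd3e, a T cell gene, had group means of 3.79 to 3.80. Arrays of 1 group correlated at r from 0.9903 to 0.9976. ApoE replicate 2 had the lowest mean correlation with its own group, 0.9912, and ApoE replicate 5 correlated with AS1 replicate 3 at 0.9935, nearly as closely as with the other ApoE arrays on average, 0.9942. Differences without these 2 ApoE arrays are therefore given beside the results that moved. In RNA from whole cultures, fewer cells of a type and less RNA per cell cannot be told apart.

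Adgre1, the macrophage surface antigen gene, had similar means with WT and AS1 plasma and lower ones with ApoE and AS2 plasma. The 4 WT arrays read 12.57, 12.56, 12.57 and 12.53 (mean 12.56 ± 0.02, SD, n = 4). The 5 ApoE arrays read 12.02, 12.12, 12.08, 12.02 and 12.15 (12.08 ± 0.06, n = 5), each below every WT array. ApoE was 0.48 ± 0.07 (SE) lower on the log2 scale, a 1.39-fold difference. The 3 AS1 arrays read 12.51, 12.79 and 12.33 (12.54 ± 0.23, n = 3), which surrounded the WT values and lay above all ApoE arrays. AS1 exceeded ApoE by 0.46 ± 0.07, and this difference was 0.34 without AS1 replicate 2 and 0.57 without AS1 replicate 3. The 6 AS2 arrays ran from 12.16 to 12.33 with a median of 12.21 (12.23 ± 0.07, n = 6). They lay above the ApoE arrays by a gap of only 0.02 and below the WT arrays. Their mean was 0.15 ± 0.06 above ApoE and 0.33 ± 0.06 below WT. The order from high to low was WT, AS1, AS2 and ApoE, and WT and AS1, which differed by 0.02 ± 0.08, overlapped. That small difference was lower in AS1 over all arrays and 0.09 higher in AS1 without AS1 replicate 3.

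Adgre4, the other myeloid receptor of the family, had the largest differences of the 5 genes in the comparisons of ApoE with WT, AS1 and AS2 plasma. It read 10.55, 10.56, 10.51 and 10.59 in the WT arrays (10.55 ± 0.03, n = 4). With ApoE plasma it read 8.11, 8.57, 8.07, 7.77 and 8.96 (8.30 ± 0.47, n = 5). All 5 ApoE arrays lay at least 1.56 log2 units below the lowest WT array, and they were also the most scattered group of this gene. The mean was 2.26 ± 0.17 lower with ApoE than with WT plasma, or 4.78-fold, and the difference, ApoE minus WT, was -2.57 when ApoE replicates 2 and 5, the highest 2 ApoE arrays, were left out. With AS1 plasma the values were 10.35, 10.44 and 10.14 (10.31 ± 0.15, n = 3). These lay just below the WT range, by a gap of 0.07, and far above every ApoE array. The AS1 mean was 0.24 ± 0.19 below the WT mean. AS1 exceeded ApoE by 2.02 ± 0.18, a 4.05-fold difference, and by 2.33 without ApoE replicates 2 and 5. With AS2 plasma the values ran from 8.69 to 9.05 with a median of 8.89 (8.89 ± 0.14, n = 6). Only ApoE replicate 5, at 8.96, reached into this range, and the AS2 mean was 0.59 ± 0.15 above ApoE, or 0.90 without ApoE replicates 2 and 5. AS2 remained 1.66 ± 0.16 below WT and 1.42 ± 0.18 below AS1, with no overlap in either case. The order was WT, AS1, AS2 and ApoE.

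Adgre5, the CD97 gene, ran the other way from Adgre1 and Adgre4 between WT and ApoE plasma, with its lowest level under WT plasma. From ApoE to AS1 and AS2 its means rose, as theirs did. It read 10.21, 10.24, 10.21 and 10.07 in the WT arrays (10.18 ± 0.08, n = 4). It read 10.33, 10.35, 10.41, 10.51 and 10.62 in the ApoE arrays (10.44 ± 0.12, n = 5). Every ApoE array was above every WT array, by a gap of 0.09, and the means differed by 0.26 ± 0.06, or 1.20-fold. The AS1 arrays read 10.68, 10.53 and 10.68 (10.63 ± 0.08, n = 3), and the AS2 arrays ran from 10.50 to 10.66 with a median of 10.58 (10.57 ± 0.07, n = 6). The 3 groups with plasma of donors lacking apolipoprotein E all lay above WT, and they overlapped one another. AS1 was 0.19 ± 0.07 and AS2 0.13 ± 0.05 above ApoE, while AS1 and AS2 differed by 0.06 ± 0.06. Against WT, the differences were 0.45 ± 0.07 for AS1 and 0.39 ± 0.06 for AS2. The order was AS1, AS2, ApoE and WT, in which the first 3 neighbours overlapped.

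Aif1, the IBA1 gene, was low with both ApoE and AS2 plasma. The WT arrays read 8.12, 8.14, 8.14 and 8.19 (8.15 ± 0.03, n = 4). The ApoE arrays read 6.62, 6.64, 6.71, 6.66 and 7.03 (6.73 ± 0.17, n = 5). The ApoE arrays were all at least 1.09 below the WT arrays, and the means differed by 1.42 ± 0.13, or 2.67-fold. The AS1 arrays read 7.80, 8.13 and 7.68 (7.87 ± 0.23, n = 3), above every ApoE array and partly within the WT range. AS1 exceeded ApoE by 1.14 ± 0.14, or 2.20-fold, and lay 0.28 ± 0.15 below WT. The AS2 arrays ran from 6.27 to 7.10 with a median of 6.74 (6.70 ± 0.27, n = 6), across the whole ApoE range. AS2 and ApoE differed by 0.03 ± 0.12, with the ApoE mean higher, and the AS2 mean was 0.04 higher without ApoE replicate 5 and 0.06 higher without AS2 replicate 5, so no direction is given. AS2 was 1.45 ± 0.12 below WT and 1.17 ± 0.14 below AS1, with no overlap. The order was WT, AS1, ApoE and AS2, and neither the first nor the last pair of neighbours was separated.

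Coro1a, the coronin 1A gene, had the same order of groups as Adgre1 and Adgre4. The WT arrays read 9.61, 9.61, 9.69 and 9.58 (9.62 ± 0.05, n = 4). The ApoE arrays read 8.09, 8.46, 8.59, 8.56 and 8.88 (8.52 ± 0.28, n = 5). All ApoE arrays were lower than all WT arrays, and the means differed by 1.11 ± 0.11, or 2.15-fold. The AS1 arrays read 9.71, 9.52 and 9.39 (9.54 ± 0.16, n = 3), on both sides of the WT values and above every ApoE array. AS1 exceeded ApoE by 1.02 ± 0.12, a 2.03-fold difference, and differed from WT by 0.09 ± 0.12. The AS2 arrays ran from 8.88 to 9.10 with a median of 9.02 (9.002 ± 0.087, n = 6). Their lowest value was above the highest ApoE value by only 0.002, and the AS2 mean was 0.49 ± 0.10 above ApoE, or 1.40-fold. AS2 was also 0.62 ± 0.10 below WT and 0.54 ± 0.11 below AS1, so its arrays formed a level between ApoE and the other groups.

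**Figure D1:**
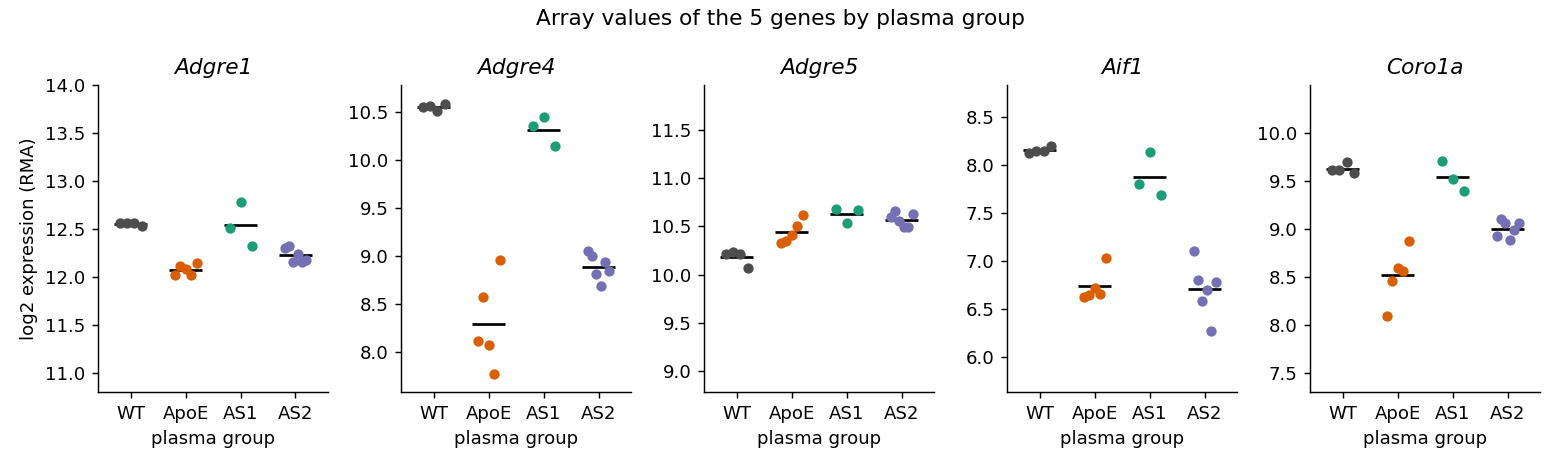
Log2 expression of the 5 genes in each array (points) by plasma group (WT, n = 4; ApoE, n = 5; AS1, n = 3; AS2, n = 6), with the group mean as a bar; each panel spans the same length of the log2 scale at its own level. ApoE arrays lie below all WT arrays for Adgre1, Adgre4, Aif1 and Coro1a and above them for Adgre5, AS1 arrays are near the WT level for those 4 genes, and AS2 arrays for Aif1 spread over the ApoE range.

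The question put by the first comparison is how macrophages in plasma of mice without apolipoprotein E differ from those in wild-type plasma. Adgre1, Adgre4, Aif1 and Coro1a were lower with ApoE plasma in every array, and Adgre5 was higher in every array. Over all genes tested, 6.90% were lower in every ApoE array than in every WT array and 7.40% were higher. The median difference of the 5 genes was -1.11 where that of all genes was -0.0036. The second comparison asks what a further loss of stabilin-1 in the plasma donor changes. The same 4 genes, and not Adgre5, were higher in every AS1 array than in every ApoE array, as were 9.04% of all genes, while 9.20% were lower. In the third comparison, of AS2 with ApoE plasma, Adgre1 and Coro1a were higher in every array, by the narrow gaps given above, as were 5.44% of all genes, while 5.48% were lower. The median difference of the 5 genes was 1.02 for AS1 and 0.15 for AS2. The genes were selected on these values, so nothing is read from their counts against these shares. All 3 comparisons use the same ApoE arrays, so a low or high ApoE array enters each of them.

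**Figure D2:**
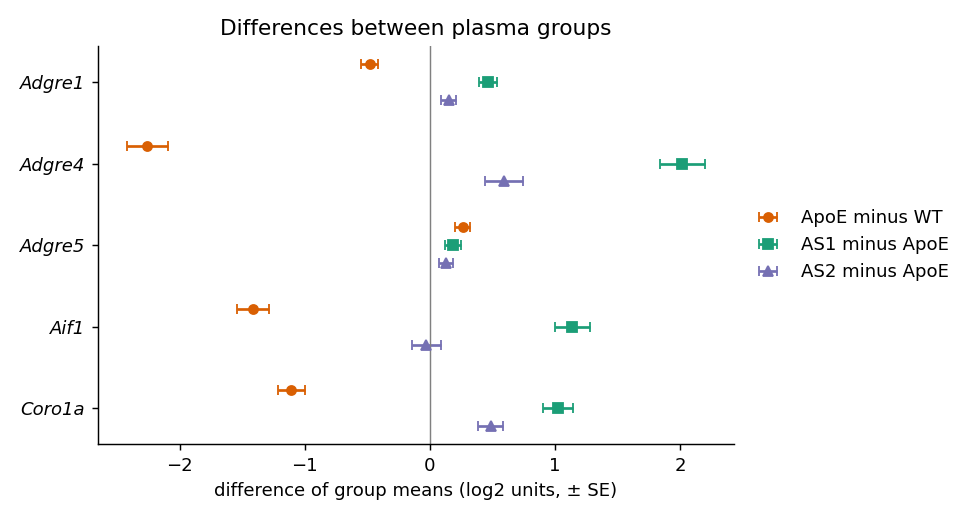
Differences of group means in log2 units (points) with their standard errors (bars) for the 5 genes in ApoE minus WT, AS1 minus ApoE and AS2 minus ApoE. Adgre4 has the largest differences, -2.26, 2.02 and 0.59, Aif1 has -1.42, 1.14 and -0.03, and all 3 differences of Adgre5 are positive and at most 0.26.

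The 4 genes lower with ApoE plasma also followed one another over the 18 arrays, with Pearson r from 0.84 for Aif1 and Coro1a to 0.93 for Adgre4 and Coro1a. These r are descriptive, since group means, on which the genes were chosen, make up most of them. After the group means were taken off, r was 0.68 for Adgre1 and Aif1 and 0.48 for Adgre1 and Adgre4, and lowest for Adgre1 and Coro1a at 0.26. Adgre5 correlated with the other 4 at -0.16 to -0.43 over the 18 arrays, and at 0.67 with Coro1a once group means were taken off. The r of Adgre4 and Coro1a after group means were taken off was 0.46, and -0.08 when ApoE replicates 2 and 5 were left out.

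Genes whose array values were most like each gene were found by Pearson r over the 18 arrays, among named rows. All values of an array share that array's RNA and normalization, so these r are a description. For Adgre1 they were Map3k14, encoding the kinase NIK of non-canonical NF-κB signalling (r = 0.95), Ermard (0.95), Sesn1, a sestrin of the stress response (0.95), and Rab43, a small GTPase (0.94). Map3k14 had group means of 7.25 with WT, 6.10 with ApoE, 7.19 with AS1 and 6.45 with AS2 plasma. For Adgre4 they were Plxdc2 (0.99), Hpgd, which breaks down prostaglandins (0.98), Map3k14 (0.98) and Abca9, an ABC transporter (0.97). Hpgd kept r = 0.97 with Adgre4 after group means were taken off, so the scattered ApoE arrays of Adgre4 were matched by those of Hpgd array by array. For Adgre5 they were the centromere histone Cenpa (0.92), the phospholipid transfer protein Pltp (0.89), the cell cycle regulator E2f7 (0.89) and Smtn (0.89). Cenpa had means of 7.30 with WT, 7.80 with ApoE, 8.20 with AS1 and 8.12 with AS2 plasma. For Aif1 they were the transcription factor Pou2f2 (0.98), Vgll4 (0.97), Ly86, the MD-1 partner of a Toll-like receptor homologue (0.97), and N4bp2l1 (0.96). Pou2f2 had means of 8.37, 6.66, 8.17 and 6.60 in WT, ApoE, AS1 and AS2. For Coro1a they were Tmem176b (0.99), the interleukin-10 receptor chain Il10ra (0.98), Tmem176a (0.97) and the NAD kinase Nadk (0.97). Tmem176b had means of 11.18, 9.16, 11.13 and 9.98, the order of groups seen for Coro1a. Map3k14 is the 1 gene that stood among the 4 most like genes of 2 of the 5.

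**Figure D3:**
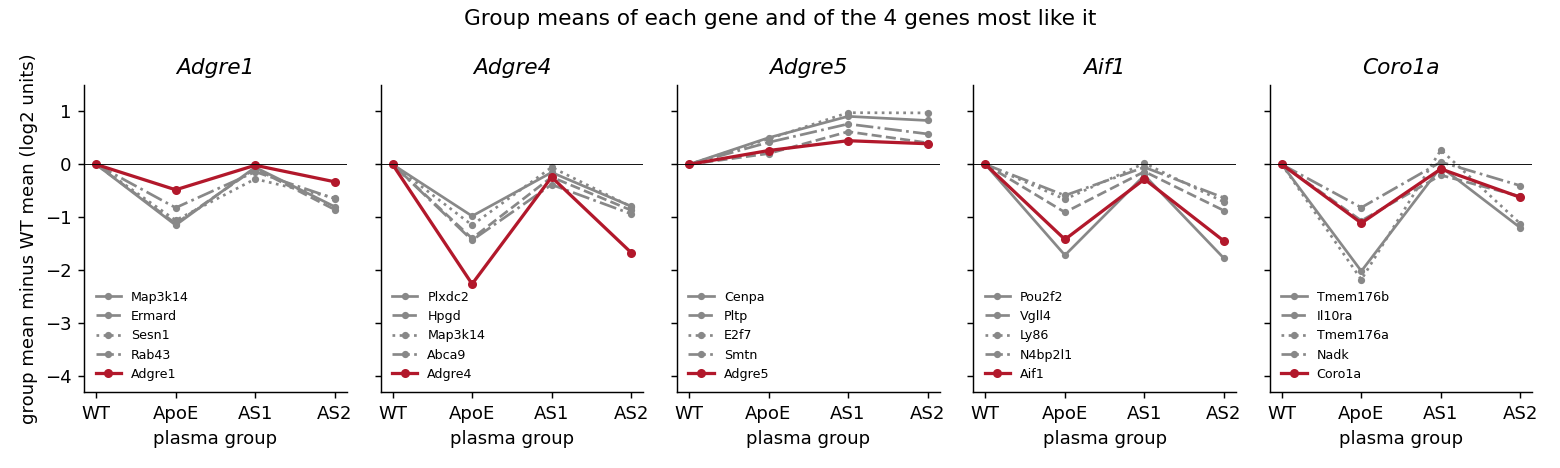
Group means of each of the 5 genes (red) and of the 4 named genes most like it over 18 arrays (grey), as log2 difference from the WT mean of the same gene, for the plasma groups WT, ApoE, AS1 and AS2. Genes like Adgre1, Adgre4, Aif1 and Coro1a dip in ApoE and return in AS1, and genes like Adgre5, such as Cenpa, are lowest in WT.

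Related genes were read from lists of relatives and partners, tested with limma over all 24705 rows with Benjamini-Hochberg adjustment and a threshold of 0.05. Over all genes tested, 8.54% rose and 8.36% fell from WT to ApoE, 7.74% rose and 8.80% fell from ApoE to AS1, and 7.59% rose and 8.02% fell from ApoE to AS2. These lists and the marker lists below were chosen with earlier results of these data known. Nothing is therefore read from their counts against the shares over all genes. The 8 lists held 107 genes, of which 96 were measured. From WT to ApoE, 29 of these fell (30.2%) and 8 rose. The count that fell was 23 without WT replicate 3 and as low as 21 in another processing setting. From ApoE to AS1, 31 rose and 8 fell, or 5 that fell without AS1 replicate 1, and 20 that rose when only both compared groups were fitted. From ApoE to AS2, 19 rose (19.8%) and 11 fell.

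Of the other adhesion G protein-coupled receptors, 25 of 27 listed were measured and 22 did not pass the test from WT to ApoE. Adgrl2, a latrophilin, fell by 0.37 ± 0.06 (adjusted p = 0.000152). Adgrg1, the GPR56 gene, rose from 4.35 to 4.90 (adjusted p = 0.00187), rose further to 5.58 with AS1 and fell to 4.21 with AS2 plasma. Adgrg3, the GPR97 gene of granulocytes, was 0.42 ± 0.14 higher with ApoE than WT plasma, at an adjusted p of 0.0475 that was lost on leaving out any of WT replicates 1, 2 and 3 or ApoE replicates 2, 4 and 5, which left 1 receptor that rose. From ApoE plasma, Adgrg3 rose by 1.08 ± 0.15 with AS1 and fell by 0.67 ± 0.13 with AS2. The median difference of the 25 receptors was 0.05, 0.02 and -0.02 in the 3 comparisons.

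Adgre5 has ligands on the cell surface, and 7 genes for them were measured. Itgb3, the integrin beta 3 chain, rose from 6.13 with WT to 7.87 with ApoE plasma (adjusted p = 1.44e-06). It rose further to 8.63 with AS1 plasma (adjusted p = 0.00952) and was 6.16 with AS2 plasma, where it fell by 1.71 ± 0.16 from the ApoE level. Itgb1, the integrin beta 1 chain, rose by 0.51 ± 0.10 from WT to ApoE and fell by 0.62 ± 0.11 from ApoE to AS1. Itga5 and Itgav, integrin alpha chains, rose by 0.62 ± 0.06 and 0.52 ± 0.07 from ApoE to AS2. Itga5 was 0.235 ± 0.078 lower with AS1 than ApoE plasma, at an adjusted p of 0.047. The ligand genes that fell from ApoE to AS1 were 2, or 1 without ApoE replicate 1, 3 or 5 or AS1 replicate 1 or 2. Cd55, which restrains complement and is the best known CD97 ligand, rose from 4.28 ± 0.13 with ApoE to 6.17 ± 1.30 (SD, n = 3) with AS1 plasma (adjusted p = 0.000733), with a wide spread among the AS1 arrays. Its rise was 1.88 ± 0.34 over all arrays, and 1.18 without AS1 replicate 2. Thy1 and Cd55b did not pass in any of the 3 comparisons, with group means of 4.39 to 4.47 and 3.63 to 3.74. The ligand genes moved in both directions, and their median differences were -0.08, -0.05 and -0.0049.

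Of 6 other coronins measured, Coro1b had the same order of group means as Coro1a, at 10.98 with WT, 10.72 with AS1, 10.59 with AS2 and 10.52 with ApoE plasma, with smaller differences. It fell by 0.46 ± 0.05 from WT to ApoE (adjusted p = 5.8e-06), while Coro1c rose by 0.47 ± 0.07 (adjusted p = 5.79e-05) and fell by 0.38 ± 0.07 from ApoE to AS1. Coro7 fell by 0.32 ± 0.06 and Coro2a rose by 0.26 ± 0.06 from ApoE to AS2. Coro7 and Coro1b were 0.28 ± 0.07 and 0.20 ± 0.06 higher with AS1 than ApoE plasma, and both calls were lost without AS1 replicate 1, and that of Coro1b also without AS1 replicate 2. Coro6 and Coro2b did not pass in any of the 3. The median of the 6 was 0.0072 from WT to ApoE, where Coro1a was 1.11 lower.

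The Arp2/3 complex, on which coronins act, had 6 of 10 listed genes measured. Arpc4 fell by 0.37 ± 0.05 from WT to ApoE (adjusted p = 5.51e-05) and rose by 0.35 ± 0.06 with AS1 and 0.18 ± 0.05 with AS2 plasma. Arpc5l, an alternative subunit, went the other way, rising by 0.31 ± 0.06 and then falling by 0.28 ± 0.07 with AS1 plasma. Arpc5 rose by 0.25 ± 0.05 from ApoE to AS2. Arpc5 was also called from WT to ApoE, at -0.16 ± 0.05 and an adjusted p of 0.0454, and that call was lost without any 1 of the arrays other than WT replicate 4. Arpc1a, Arpc2 and Actr3 did not pass in any of the 3 comparisons, and the list's median was -0.06, -0.08 and 0.09.

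The Rac and WAVE pathway drives the membrane ruffles that IBA1 takes part in. From WT to ApoE, 10 of its 17 measured genes fell and 7 did not pass, among them Elmo1 (9.28 and 9.44). The median difference of the 17 was -0.24, and the count that fell was 7 without WT replicate 3 and 6 when only the 2 groups were fitted. Wasf2, a WAVE subunit, fell by 0.49 ± 0.04 (adjusted p = 6.46e-08), Abi1, another subunit, by 0.44 ± 0.04 (adjusted p = 9.91e-08), and Dock8, an activator of Cdc42, by 0.42 ± 0.06 (adjusted p = 3.39e-05). From ApoE to AS1, 9 of 17 rose, among them Wasf2 by 0.50 ± 0.04, Dock8 by 0.61 ± 0.06 and Rac2, the Rac of blood cells, by 0.83 ± 0.11 (adjusted p = 5.99e-05). From ApoE to AS2, 8 of 17 rose, including Abi1 at 0.35 ± 0.03 and Nckap1l at 0.32 ± 0.04, while Elmo1, a partner of Dock proteins, fell by 0.43 ± 0.05.

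Other actin-binding proteins moved in both directions. From WT to ApoE, 7 of 16 fell, or 4 when only the 2 groups were fitted. Gsn, gelsolin, which severs filaments, fell by 0.55 ± 0.06 (adjusted p = 1.18e-06), Ssh2, a cofilin phosphatase, by 0.46 ± 0.07, and Vasp, which lengthens filaments, by 0.43 ± 0.08. Plek, pleckstrin, rose by 0.75 ± 0.08 (adjusted p = 1.77e-06) and fell with both AS1 plasma, by 0.47 ± 0.08, and AS2 plasma, by 1.01 ± 0.07. With AS1 plasma Ssh2 rose by 0.61 ± 0.08 and Vasp by 0.59 ± 0.09. With AS2 plasma Gsn rose by 0.70 ± 0.05 and Evl, a relative of Vasp, by 0.70 ± 0.05.

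Aif1 lies in the MHC class III region between Lst1 and Prrc2a, the coding genes next to it on either side in the RefSeq order. Lst1, a leukocyte gene, had group means of 9.47 with WT, 8.47 with ApoE, 9.34 with AS1 and 8.30 with AS2 plasma. It fell by 1.01 ± 0.16 from WT to ApoE (adjusted p = 0.00021) and rose by 0.87 ± 0.18 from ApoE to AS1 (adjusted p = 0.00187), and like Aif1 it was low with ApoE and AS2 plasma. Prrc2a, on the other side, did not pass from WT to ApoE (8.76 and 8.56) and rose by 0.56 ± 0.10 from ApoE to AS1. Of 10 measured genes listed from this region, up to 7 coding genes from Aif1, 3 fell from WT to ApoE. They were Lst1, Atp6v1g2 at -0.31 ± 0.07 and Bag6 at -0.27 ± 0.08. The call of Bag6 was lost without WT replicate 1, WT replicate 3 or ApoE replicate 1. The median of the 10 was -0.15, where Aif1 was 1.42 lower.

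Of 9 measured transcription factors that set macrophage identity, 5 fell from WT to ApoE, and the median of the 9 was -0.34. Cebpa fell by 0.89 ± 0.11 (adjusted p = 1.03e-05), Mitf by 0.75 ± 0.08 (adjusted p = 1.38e-06), Spi1, the PU.1 gene, by 0.62 ± 0.10 (adjusted p = 0.000304) and Runx1 by 0.41 ± 0.07 (adjusted p = 0.000202). From ApoE to AS1, 5 of 9 rose, including Runx1 at 0.64 ± 0.07, Spi1 at 0.57 ± 0.11, Mitf at 0.42 ± 0.08 and Irf8 at 0.38 ± 0.07. From ApoE to AS2, Mitf rose from 7.91 to 8.91 and Spi1 rose by 0.37 ± 0.09, while Maf fell by 0.52 ± 0.06 and Cebpb by 0.54 ± 0.09. With ApoE plasma the 4 lower genes of this account therefore stood beside lower Cebpa, Mitf, Spi1, Runx1 and Maf, the last at -0.34 ± 0.07. With AS2 plasma Mitf had a mean of 8.91, against 8.66 with WT, while Aif1 had 6.70 against 8.15. The link between the 4 genes and these factors was not tested.

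Markers of macrophages and of other marrow cells moved in the same comparisons, and their part in the values of the 5 genes was not tested. Among macrophage markers, 6 of 11 fell from WT to ApoE, including C1qa, a complement chain, by 1.14 ± 0.14, Itgam, the CD11b chain, by 0.85 ± 0.09 and Fcgr1, an Fc receptor, by 0.72 ± 0.05, while Cd68 rose by 0.24 ± 0.05. The mean of the 11 in an array was 11.50 to 11.53 with WT, 11.15 to 11.30 with ApoE, 11.42 to 11.47 with AS1 and 11.10 to 11.18 with AS2 plasma, so the WT and AS1 arrays were separated from the others as they were for Aif1. From ApoE to AS2, Itgam rose by 0.96 ± 0.08 and Mertk, a receptor for dying cells, fell by 0.70 ± 0.05.

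Of 9 Ly6C-low monocyte markers, 5 fell from WT to ApoE and 4 did not pass, among them Pglyrp1 (6.79 and 6.90). Those that fell included Cd300e at -3.70 ± 0.17 (adjusted p = 1.65e-10), Itgal at -1.64 ± 0.16 and Treml4 at -1.22 ± 0.08. From ApoE to AS1 6 of 9 rose, with Itgal at 1.91 ± 0.18. From ApoE to AS2 4 of 9 fell and 2 rose, Cx3cr1 by 0.63 and Nr4a1 by 0.61. The count that rose was 1 without ApoE replicate 1 or ApoE replicate 3. The count that fell was 3 without ApoE replicate 4, ApoE replicate 5 or AS2 replicate 4. It was as low as 1 in another processing setting. The list's mean in an array was 6.37 to 6.60 with WT, 5.39 to 5.69 with ApoE, 6.16 to 6.42 with AS1 and 5.30 to 5.53 with AS2 plasma. Among 7 Ly6C-high monocyte markers, 3 fell and 4 did not pass from WT to ApoE, with a median difference of 0.10. From ApoE to AS1 5 rose and 1, Vcan, fell, a call lost without ApoE replicate 1, ApoE replicate 4 or AS1 replicate 1. From ApoE to AS2 1 rose and 4 fell. Ccr2, a chemokine receptor, fell by 1.84 ± 0.12 with ApoE plasma and rose by 1.56 ± 0.14 with AS1 and 1.99 ± 0.11 with AS2. Chil3 rose by 1.06 ± 0.18 with AS1 and fell by 1.73 ± 0.15 with AS2. The list's mean was 8.31 to 8.47 with WT, 7.88 to 8.37 with ApoE, 8.71 to 8.84 with AS1 and 7.41 to 7.88 with AS2 plasma.

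The mean of the neutrophil markers was higher in every AS1 array than in every WT array. Adgre5 was 0.45 ± 0.07 higher with AS1 than WT plasma. It was also 0.39 ± 0.06 higher with AS2 than WT plasma. With AS2 plasma the neutrophil mean was 7.26 to 8.06, against 7.98 to 8.35 with WT plasma. Adgre4 was 0.24 ± 0.19 lower with AS1 than WT plasma. For Adgre1, Aif1 and Coro1a the AS1 and WT arrays overlapped. All 13 neutrophil markers rose from ApoE to AS1, with a median of 1.51, among them Elane by 1.81 ± 0.20 (adjusted p = 9.71e-06) and Mpo by 1.79 ± 0.20. The mean of the 13 was 7.98 to 8.35 with WT, 7.86 to 9.12 with ApoE, 9.87 to 10.22 with AS1 and 7.26 to 8.06 with AS2 plasma. From ApoE to AS2 7 of 13 fell, including S100a8 by 1.24 ± 0.18 and S100a9 by 1.18 ± 0.17. Markers of eosinophils, basophils and mast cells had means of 4.56 to 4.72 with WT, 4.44 to 4.73 with ApoE, 5.06 to 5.45 with AS1 and 4.28 to 4.46 with AS2 plasma, and 5 of 9 rose from ApoE to AS1, including Prg2 at 1.89 ± 0.23. Dendritic cell markers had means of 4.28 to 4.41, 4.42 to 4.63, 4.64 to 4.79 and 4.26 to 4.44 in the same order, with Siglech rising by 0.70 ± 0.10 from ApoE to AS1. The mean of the B, T and NK cell markers stayed between 3.80 and 4.01 in all arrays, below the median of all values. Cd79a was the 1 of them called, at 0.32 ± 0.09 from ApoE to AS1, a call lost without ApoE replicate 1 or without AS1 replicate 1, where it was 0.19.

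**Figure D4:**
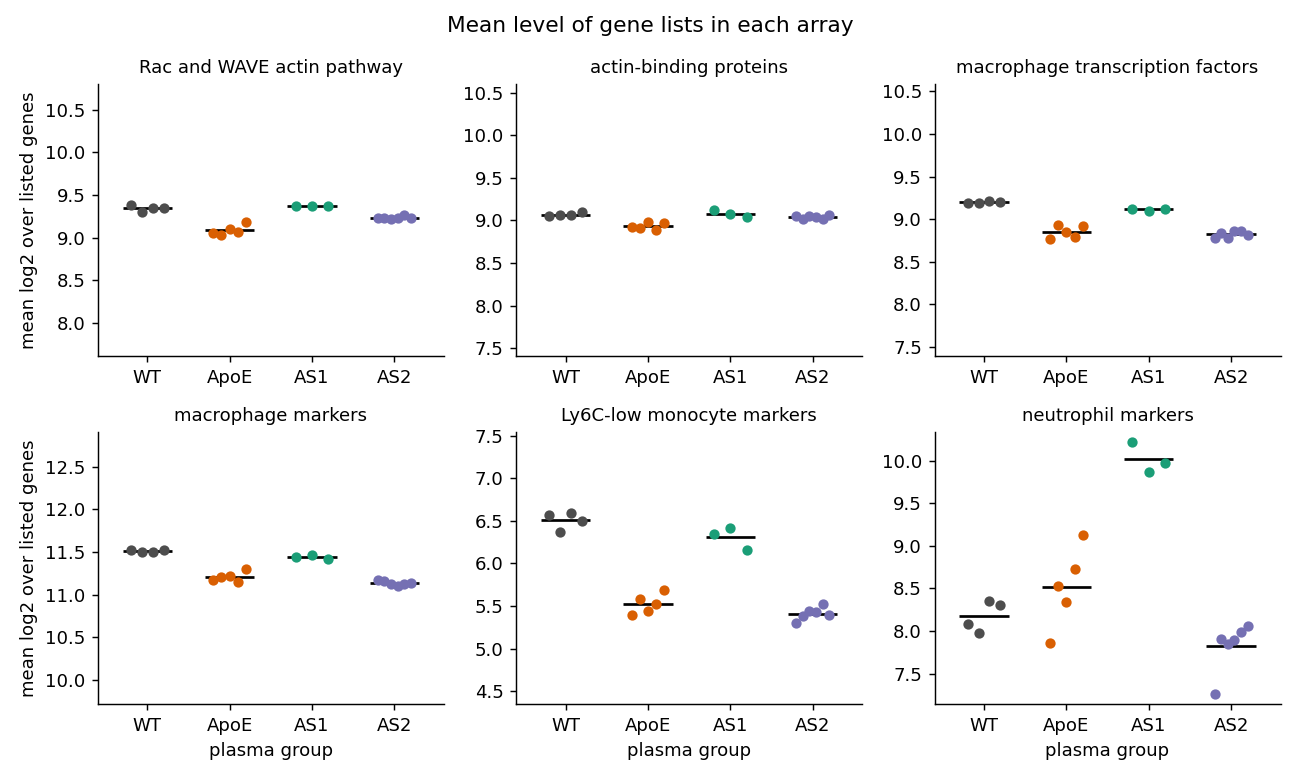
Mean log2 value over the measured genes of 6 lists in each array (points) by plasma group, with the group mean as a bar; each panel spans the same length of the log2 scale. The means of the Ly6C-low monocyte and macrophage markers are lower in ApoE and AS2 than in WT and AS1, and neutrophil markers are highest in AS1, from 9.87 to 10.22.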

How the data were processed

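The authors deposited log2 expression values of 18 arrays made with RMA, per the submitters' processing notes. The version of RMA, how probes were grouped and the genome build: not given in the sources used here. Sorted values of 17 arrays were identical, and those of ApoE replicate 1 differed by at most 0.0019. Of 25428 rows, 723 are unnamed here and none had several symbols. Arrays have no read depth, so their number limits the precision. Groups came from the sample titles.

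With limma 3.58.1 in R 4.3.3, 1 model of 4 group means was fitted to the deposited log2 values of 24705 rows (14 residual degrees of freedom), with two-sided tests. On simulated data for ApoE against WT over 24705 rows, 82 of 100 changes of 0.5, 50 of 50 of 1 and 50 of 50 of 2 log2 units were called, and 5.7% of calls were unchanged rows. Errors are SD for group means and SE from limma for differences. The main model did not pair arrays by replicate number. Promoter windows were searched in Python 3.11.15.

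The members and lists were chosen with earlier results of these data known. The naming rule took all 5 genes, the 4 named genes most like each, up to 3 members per list, direction and comparison by smallest p, all members of lists of 7 or fewer, and fixed cell type checks. List genes without a named row were not analysed here. Alternatives left out each array in turn, ApoE replicates 2 and 5, or rows with means under the 40th percentile, tested unnamed rows too, took only both compared groups, weighted arrays, used a trended and robust variance, renewed the quantile normalization, centred medians, or added a replicate block.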

Additional observations from a re-analysis of the deposited data

Results flagged for a closer look

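Among 15 groups of 4 to 6 arrays examined for the 5 genes, 2 had an array far from the rest of its group by Dixon's criterion; chance alone marks about 5% of groups. Adgre5 in WT replicate 4 was 10.07, below the nearest WT value of 10.21, a gap of 0.837 of the group's whole range. Aif1 in ApoE replicate 5 was 7.03, above the nearest ApoE value of 6.71, a gap of 0.777 of the range.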

How the results depend on the processing

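Directions in the 3 main comparisons held in every setting for all but Aif1 between AS2 and ApoE. That difference, -0.03, was 0.043 without ApoE replicate 5, 0.056 without AS2 replicate 5 and 0.037 without ApoE replicates 2 and 5, and leaving out 1 array gave -0.110 to 0.056. Adgre1 from ApoE to AS1 ranged from 0.34 to 0.57 on leaving out 1 array, and Adgre1 from WT to AS1, at -0.02, was 0.090 without AS1 replicate 3. Without ApoE replicates 2 and 5, Adgre4 was -2.57, 2.33 and 0.90 in ApoE minus WT, AS1 minus ApoE and AS2 minus ApoE. The cause of these shifts was not tested. Same-numbered arrays deviated together at r from -0.14 to 0.133, which shows no pairing by number but cannot exclude one, and the labels state none. With the replicate block, Adgre4 was -2.35 ± 0.14 from WT to ApoE. From WT to ApoE 2008 genes rose and 1937 fell with the block, against 2111 and 2066 without it. With the block, 1764 rose and 1984 fell from ApoE to AS1, and 1695 rose and 1780 fell from ApoE to AS2. With 3 to 6 arrays a group, differences as small as the gap of Coro1a between AS2 and ApoE rest on single arrays.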
